A study of Mus musculus with 36 samples.

Results

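H4WT-alone places are stretches of the mouse genome at which HA-tagged wild-type histone H4 was called as bound in embryonic stem cells. Neither of its mutants had a peak there that was kept. They were found by pooling the peaks of the H4WT, H4K91R and H4K91Q pulldowns, leaving out peaks that overlapped an empty-vector peak, and joining peaks that shared at least 1 bp into places. A place built from H4WT peaks only was a member. There were 41624 members among 92852 places, or 44.8%, and they made up 64% of the 65074 places that held an H4WT peak. The other 23450 H4WT places also held a mutant peak and are called shared here: 20932 held H4WT and H4K91R, 2388 held all 3 histones, and 130 held H4WT and H4K91Q. Membership says that no mutant peak clear of the empty-vector peaks was called there, not that the mutant histone was absent.

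The lines were mouse embryonic stem cells with a stably integrated PiggyBac transgene: H4WT with a 3HA tag, H4 with lysine 91 changed to arginine (H4K91R) or to glutamine (H4K91Q) with the same tag, or an empty vector. All 4 are titled parental, as against the HiraKO, H33DKO and DAXXKO lines of the same series. Each anti-HA pulldown was a ChIP-seq experiment, in which DNA held by the tagged protein is recovered and sequenced, and was compared by the authors with the input of its own line. Every group had 1 library, and 4 of the 36 samples in the series were analysed here. The labels give neither the promoter of the transgene nor whether a line was 1 clone, and the cells kept their own H4 genes. With 1 library a group, differences between libraries could not be checked against replicates, no p-value is given, and the depth is unknown because the lists hold no read numbers. Ranges in brackets after a share are exact 95% binomial intervals, which cover counting error only. A core histone occupies expressed and silent genes alike, so occupancy of marker genes cannot check the cell type. Among all protein-coding genes with an annotated start, 34% had an H4WT-alone place at it and 32.6% a shared one. Of the 18 pluripotency genes with a start 7 had an H4WT-alone place, or 38.9% (17.3 to 64.3), and 12 a shared one. Of 12 fibroblast genes 3 had an H4WT-alone place, or 25% (5.49 to 57.2), and 5 a shared one.

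Histone H4 enters chromatin paired with H3, and chaperones hand the pair to DNA behind replication forks or, with the variant H3.3, at sites where nucleosomes are turned over outside replication. Lysine 91 lies at the face where H4 meets H2B, and its acetylation on newly made H4 is known from yeast and mammalian cells. Arginine keeps the positive charge of the lysine, whereas glutamine is often used to mimic the acetylated form. Promoters of active genes, many of them rich in CpG dinucleotides, are among the places of fastest histone exchange in stem cells.

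The promoters printed next carry the H4WT-alone places with the highest fold at gene starts, where fold is the authors' enrichment of the pulldown over background at the summit, the highest point of a peak. Each is the RefSeq window (GRCm38.p6, which has the mm10 coordinates) from 250 bases before to 50 after an annotated start, given 5′ to 3′ along the gene. By rule, the first 6 gene-start places were taken whose promoter window overlapped the place. Capitals mark matches, on either strand, to any of 9 short motifs: the SP and KLF GC box GGGCGGG, ETS CCGGAAG, the NRF1 core GCGCATG, the YY1 core ATGGCGG, the CCAAT box CCAAT, the CRE core TGACGTC, the E-box CACGTG, the ZBTB33 core CTCGCGA and the TATA box TATAAA. Matches of different motifs were allowed to overlap. The windows are chr10:80855025-80855324 on the plus strand for Sppl2b, chr11:118355362-118355661 on the minus strand for Timp2, chr16:85173658-85173957 on the minus strand for App, chr10:78069118-78069417 on the plus strand for Icosl, chr12:108835827-108836126 on the minus strand for Slc25a29 and chr4:135272711-135273010 on the minus strand for Clic4.
Sppl2b: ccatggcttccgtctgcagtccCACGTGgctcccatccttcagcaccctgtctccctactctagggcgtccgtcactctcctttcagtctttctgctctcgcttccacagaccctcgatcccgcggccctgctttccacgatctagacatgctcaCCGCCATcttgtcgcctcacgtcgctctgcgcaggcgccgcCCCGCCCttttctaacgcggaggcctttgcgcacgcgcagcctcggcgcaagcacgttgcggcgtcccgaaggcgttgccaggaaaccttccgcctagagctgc
Timp2: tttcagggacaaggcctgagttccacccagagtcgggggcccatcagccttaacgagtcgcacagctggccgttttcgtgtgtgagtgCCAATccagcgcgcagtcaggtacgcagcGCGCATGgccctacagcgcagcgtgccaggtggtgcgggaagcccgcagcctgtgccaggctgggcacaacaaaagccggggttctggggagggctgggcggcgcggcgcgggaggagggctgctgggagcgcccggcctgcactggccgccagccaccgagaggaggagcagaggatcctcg
App: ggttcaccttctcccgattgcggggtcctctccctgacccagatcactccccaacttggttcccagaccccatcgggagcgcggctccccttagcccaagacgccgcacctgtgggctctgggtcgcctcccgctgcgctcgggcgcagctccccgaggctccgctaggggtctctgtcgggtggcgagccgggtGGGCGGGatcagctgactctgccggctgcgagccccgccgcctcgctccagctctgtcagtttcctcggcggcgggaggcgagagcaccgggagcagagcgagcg
Icosl: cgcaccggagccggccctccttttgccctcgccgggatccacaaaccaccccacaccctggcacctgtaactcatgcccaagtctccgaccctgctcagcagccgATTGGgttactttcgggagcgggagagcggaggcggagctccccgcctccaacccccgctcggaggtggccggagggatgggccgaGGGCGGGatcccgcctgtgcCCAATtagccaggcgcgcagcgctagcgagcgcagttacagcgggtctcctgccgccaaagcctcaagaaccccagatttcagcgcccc
Slc25a29: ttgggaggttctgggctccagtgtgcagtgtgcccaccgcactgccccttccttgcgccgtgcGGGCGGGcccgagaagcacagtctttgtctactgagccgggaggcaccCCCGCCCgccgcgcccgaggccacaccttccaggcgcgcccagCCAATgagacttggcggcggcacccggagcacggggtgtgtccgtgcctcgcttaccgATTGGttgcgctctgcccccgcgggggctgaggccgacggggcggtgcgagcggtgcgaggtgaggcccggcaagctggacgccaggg
Clic4: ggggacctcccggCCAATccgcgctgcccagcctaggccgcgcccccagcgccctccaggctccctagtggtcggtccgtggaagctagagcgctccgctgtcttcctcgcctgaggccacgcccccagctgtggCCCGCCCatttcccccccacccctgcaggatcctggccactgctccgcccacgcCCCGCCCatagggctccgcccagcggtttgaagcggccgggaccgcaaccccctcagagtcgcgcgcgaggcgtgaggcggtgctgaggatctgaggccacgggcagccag
All 6 are GC-rich, from 64% G or C in Sppl2b to 73.3% in Clic4, and hold 25 to 32 CpG dinucleotides each. The GC box was found in 5 of them, every one but Timp2, and the CCAAT box in 4. Sppl2b also held a YY1 core and an E-box, and Timp2 an NRF1 core.

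Another pair of windows was added after the values were seen, to set a ribosomal protein gene with an H4WT-alone place beside a germline gene with a shared one. They are chr7:116334141-116334440 on the minus strand for Rps13 and chr1:166238695-166238994 on the minus strand for Mael.
Rps13: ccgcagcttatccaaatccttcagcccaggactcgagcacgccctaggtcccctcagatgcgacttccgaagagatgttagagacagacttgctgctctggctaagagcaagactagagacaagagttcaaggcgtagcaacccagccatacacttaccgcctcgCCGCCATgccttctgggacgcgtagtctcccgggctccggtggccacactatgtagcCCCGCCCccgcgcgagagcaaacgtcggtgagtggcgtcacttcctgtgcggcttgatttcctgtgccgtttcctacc
Mael: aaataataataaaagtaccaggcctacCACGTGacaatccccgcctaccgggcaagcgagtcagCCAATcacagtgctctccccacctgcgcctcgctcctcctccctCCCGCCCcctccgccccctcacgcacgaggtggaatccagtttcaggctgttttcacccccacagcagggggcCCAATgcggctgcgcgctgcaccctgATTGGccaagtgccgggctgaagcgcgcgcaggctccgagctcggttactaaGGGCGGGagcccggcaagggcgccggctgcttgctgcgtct
Rps13, a protein of the small ribosomal subunit, held a GC box and a YY1 core. Mael, a gene of the germline piRNA pathway, held GC boxes, CCAAT boxes and an E-box.

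The values that chose the members come first, as a description. Every member was 1 H4WT peak, and together they covered 11.6 Mb, against 14.0 Mb for shared places. The median fold was 5.33 for members and 6.72 for shared places, and the highest was 15.7 for members and 33.5 for shared places. The median −log10 q, the caller's significance after correction, was 5.70 for members and 9.08 for shared places, and 36.7% of members (36.2 to 37.2) lay under 5, against 14.5% of shared places (14.05 to 14.96). Members were narrow, with a median H4WT peak of 235 bp against 370 bp at shared places. At the narrowest width in the list, 189 bp, stood 15.3% of members (14.98 to 15.67) and 4.42% of shared places (4.16 to 4.69), while 95 members and 1305 shared places reached 1 kb. H4WT-alone places were thus mostly the weaker and narrower part of the H4WT list.

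Members were not confined to weak peaks. When the H4WT places were cut into 10 equal classes by fold, the H4WT-alone share was 80.1% (79.1 to 81.1) in class 1, with folds of 2.06 to 4.29, and 25.8% (24.7 to 26.9) in class 10, with folds from 8.93. Class 10 still held 1677 members. In that class the share was 26.8% at gene starts (25.1 to 28.6), 27.2% inside genes (25.6 to 28.9) and 19.7% outside genes (17.2 to 22.4). In class 7 it was 57.5% at gene starts (54.7 to 60.3), 65.6% inside genes (64.0 to 67.2) and 61.3% outside genes (58.9 to 63.7). At like fold the share thus differed between locations by less than it did between the ends of the fold range.

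**Figure D1:**
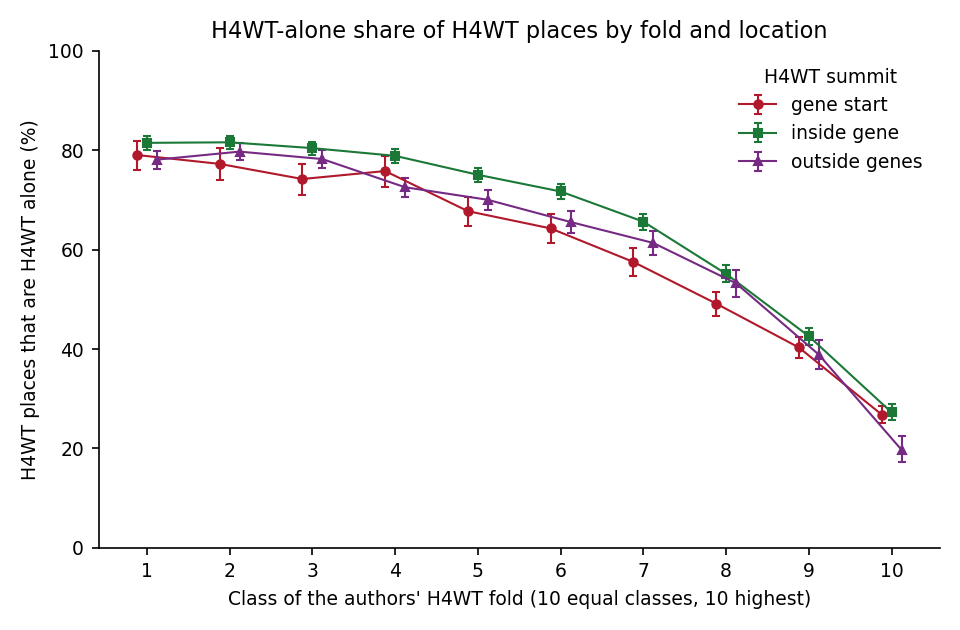
Share of H4WT places that were H4WT alone (vertical axis, percent) in 10 equal classes of the authors' H4WT fold (horizontal axis), separately for H4WT summits within 1 kb of a coding gene start, inside genes and outside genes. Points are shares and bars exact 95% intervals over places of 1 library, and at gene starts the share stands at 79.0% in class 1 and at 26.8% in class 10.

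Location, which the rule did not use, was taken from the H4WT summit: at a gene start where it lay within 1 kb of an annotated start of a protein-coding gene, otherwise inside a protein-coding gene or outside. No starts were used for chromosome 18, which leaves 40663 members. Of these, 6651 or 16.4% (16.0 to 16.7) lay at gene starts, 22628 or 55.6% (55.2 to 56.1) inside genes and 11384 or 28.0% (27.6 to 28.4) outside. Places of H4WT and H4K91R lay more often at starts, at 27.9% (27.3 to 28.5), and less often outside genes, at 20.4% (19.8 to 20.9). Places of all 3 histones stood apart from both, with 3.33% at starts (2.64 to 4.14) and 67.3% outside genes (65.4 to 69.2). With the 3 tagged lists cut to equal length the order at starts turned round, to 39.5% for members (38.5 to 40.5) and 32.4% for shared places. Within fold classes of the complete lists, shared places lay more often at starts in 9 of 10 classes, by less than over all places. In class 3 the shares were 11.5% of members (10.7 to 12.5) and 15.1% of shared places (13.2 to 17.1), in class 7 17.3% of members (16.1 to 18.5) and 21.8% of shared places (20.1 to 23.5). Class 10 was the exception, with 39.7% of members (37.4 to 42.1) and 38.0% of shared places (36.6 to 39.4). Outside genes the order was not stable. Over all fold classes together members stood at 28.0% and shared places of every kind at 25.4% (24.8 to 26.0), yet within classes shared places were the higher in 9 of 10, all but class 8. In class 4 the shares outside genes were 32.7% of members (31.4 to 34.0) and 39.9% of shared places (37.4 to 42.4), and in class 10 11.4% of members (9.88 to 13.0) and 16.2% of shared places (15.2 to 17.3). Shared places were also the higher outside genes with tagged lists of equal length, with the stricter −log10 q in every list, with 50% overlap and without H4K91R. Members at starts had a median fold of 5.92 and shared places at starts 7.67. The part of fold or depth in the lower share at starts was not tested.

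At gene starts the summits of members sat just downstream of the start, a little closer to it than those shared with H4K91R. The median summit lay 163 bp downstream for members and 212 bp downstream for places of H4WT and H4K91R. Upstream of the start lay 27.0% of member summits (25.9 to 28.1) and 20.3% of summits shared with H4K91R (19.2 to 21.4). From 300 to 600 bp downstream the shares were 18.4% (17.4 to 19.3) for members and 25.8% (24.7 to 27.0) for places shared with H4K91R. Among all H4WT places from 500 to 250 bp upstream, 63.6% were H4WT alone (60.03 to 67.02), against 46.3% (44.5 to 48.1) of those 250 to 500 bp downstream. The median fold was 6.08 in the upstream stretch and 7.27 in the downstream one, so fold moved with position. Starts of different genes on opposite strands within 1 kb of the same summit were found at 8.72% of members (8.05 to 9.42) and 6.39% of places shared with H4K91R (5.77 to 7.05).

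**Figure D2:**
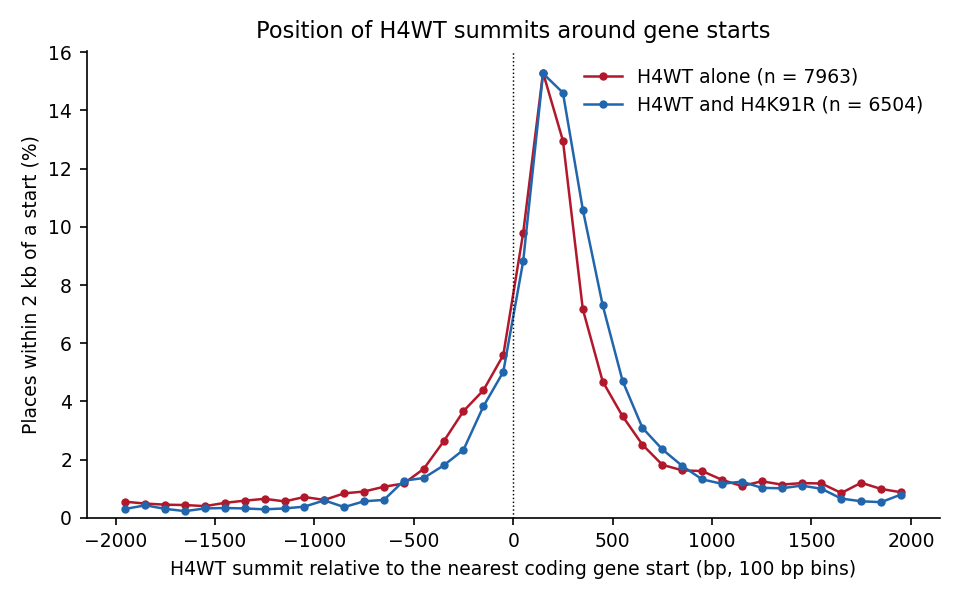
Position of H4WT summits relative to the nearest protein-coding start (horizontal axis, bp along the gene, 100 bp bins), as a percent of the places within 2 kb of a start (vertical axis), for H4WT-alone places and places of H4WT and H4K91R. Both curves peak from 100 to 200 bp downstream, and the H4WT-alone curve is the higher one from 500 bp upstream to 200 bp downstream and the lower one from 200 to 900 bp downstream.

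The strongest members at gene starts belonged to genes of varied function. Sppl2b, an intramembrane protease of the signal peptide peptidase family, led with a place at chr10:80855234-80856063 of fold 15.7, whose summit lay 361 bp downstream of the start. The same place lay at Lsm7, a subunit of the ring that binds U6 snRNA, which starts in the other direction. Timp2, which inhibits matrix metalloproteinases, followed with fold 15.04 over 1200 bp (chr11:118354543-118355742). Ddost, of the complex that attaches N-glycans, had fold 14.9 (chr4:138304815-138305203). Polr2c, a subunit of RNA polymerase II, had fold 14.8 and the highest −log10 q of these 10 places, 35.9 (chr8:94857558-94858006). App, the amyloid precursor gene, had fold 14.7 (chr16:85172898-85173724), and its nearest H4K91R peak lay 92730 bp away. Icosl, a ligand for a T cell costimulator, had fold 14.6. Slc25a29, a mitochondrial carrier of basic amino acids, had 14.3, Clic4, a chloride intracellular channel protein, 14.2, Rnf10, a RING-finger protein, 14.1 and Wdr83, a WD-repeat protein, 13.9. The nearest H4K91R peak lay 1580 to 92730 bp from these 10 places and the nearest H4K91Q peak 21440 to 429034 bp.

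Counted by gene, a protein-coding gene had such a place where any base of it came within 1 kb of a start. Starts were available for 17492 of 21887 protein-coding genes. H4WT-alone places lay at 5955 of them, or 34% of the genes counted, and shared places at 5705, or 32.6%. These are the background for the lists that follow. Of the 10071 genes with any H4WT place, 4366 had H4WT-alone places only, 1589 had both kinds and 4116 shared places only. Seen by place, 53.5% of the 12428 H4WT places at gene starts were H4WT alone. For each of 33 gene lists the H4WT-alone share of its gene-start places is set beside a like-fold share, the share among all gene-start places averaged over the same fold classes. That share was above the like-fold share in 15 lists and below it in 17, and 1 list had no starts. The exact interval lay wholly above it in 1 list, cytosolic ribosomal proteins, and wholly below it in 4. Of these 5 lists, germline genes alone kept this under all 11 alternatives that retain the H4K91R list. Cytosolic ribosomal proteins, forkhead factors and imprinted genes did so under 9 and neural progenitor genes under 7. The like-fold share was matched on fold class only, and peak width was not matched. Class 10 ran from fold 8.93 to 33.5, so places within it could still differ in fold. The part of peak width in the differences between lists was not tested.

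Ribosomal protein genes had mostly H4WT-alone places. Of 64 cytosolic ribosomal protein genes with a start, 37 had an H4WT-alone place and 11 a shared one, and 36 had H4WT-alone places only. Of their 51 gene-start places 40 were H4WT alone, or 78.4% (64.7 to 88.7), against a like-fold share of 61.5%. Rpl22 had the highest fold among them, 9.65, followed by Rpl13 with 8.95, Rps7 with 8.52 and Rps13 with 8.37. Rpl19, Rpl11 and Rplp0, which like the other shared genes named here were picked with their values known, had a place shared with H4K91R, and its fold in the H4WT list was 9.52 at Rpl19. The interval included the like-fold share with tagged lists of equal length, at 9 of 10 places H4WT alone (an interval of 55.5% to 99.7%) and a like-fold share of 76.0%, and with 50% overlap, at 80.4% (66.9 to 90.2) and 76.2%. Mitochondrial ribosomal protein genes did not follow, with 26 of 69 genes having an H4WT-alone place and 19 a shared one, and 52.5% of places H4WT alone (36.1 to 68.5) against a like-fold share of 57.5%. Ribosomal protein genes have many processed copies in the genome, and how the authors placed reads that match several sites is not given in the sources used here.

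Several other lists of constitutive cell machinery leaned the same way, with intervals that included the like-fold share. Translation initiation factors and vacuolar ATPase subunits, given below, did not with the lists as reported. Of 24 Mediator subunits, which link transcription factors to RNA polymerase II, 15 had an H4WT-alone place and 6 a shared one, and 17 of 21 places were H4WT alone, or 81.0% (58.1 to 94.6) against a like-fold share of 58.5%. Med4 (fold 10.3) and Med21 (fold 9.30) led them. Of 33 replication and licensing factors, which act in DNA replication, 17 had an H4WT-alone place and 4 a shared one. Pole3 (fold 7.94), Rfc5 (7.25), Cdc6 (6.94) and Mcm7 (6.82) were at the top. Of the 23 places at these genes 82.6% were H4WT alone (61.2 to 95.05), against a like-fold share of 62.3%, although with tagged lists of equal length it was 4 of 6 places. Subunits of the CCT chaperonin, which folds actin and tubulin, had H4WT-alone places at 7 of 8 genes and a shared one at 1, with Cct6a highest at fold 8.64. Nucleoporins had 12 of 17 genes with an H4WT-alone place and 5 with a shared one, led by Nup50 with fold 11.2. Spliceosome subunits had 23 of 39 with H4WT-alone places and 11 with shared ones, led by Lsm7, Snrpd3 (fold 9.14) and Prpf8 (8.48), but with tagged lists of equal length 66.7% of places were H4WT alone against a like-fold share of 75.9%. RNA polymerase subunits had 11 of 21 with H4WT-alone places and 7 with shared ones, with Polr3e (fold 9.13) and Polr2j (9.03) after Polr2c.

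Complex I of the respiratory chain had H4WT-alone places at 21 of 41 genes and shared ones at 11, with 71.0% of 31 places H4WT alone (52.0 to 85.8) against a like-fold share of 61.6%, and Ndufaf8 highest at fold 9.06. Proteasome subunits had 17 of 37 with H4WT-alone places and 12 with shared ones, with Psmb10 (fold 11.8), Psme3 (10.3) and Psmd2 (9.49) highest. Aminoacyl-tRNA synthetases had 12 of 27 with H4WT-alone places and 9 with shared ones, led by Cars2 (fold 8.50), and ubiquitin-conjugating enzymes 16 of 30 with H4WT-alone places and 14 with shared ones, led by Ube2n (fold 10.9). Translation initiation factors had 19 of 44 for H4WT-alone and 19 for shared places, with Eif3f (fold 10.9) and Eif3b (9.85) highest. Subunits of the vacuolar ATPase, which acidifies lysosomes, had 7 of 17 with H4WT-alone places and 8 with shared ones, led by Atp6v0d1 (fold 8.78). The H4WT-alone share of places was 51.3% (34.8 to 67.6) for initiation factors, against a like-fold share of 51.7%. For the vacuolar ATPase it was 50% (23.0 to 77.0), against 55.2%. It lay above the like-fold share for proteasome subunits (61.5% against 51.0%), synthetases (65% against 59.8%) and ubiquitin-conjugating enzymes (58.8% against 52.3%). For initiation factors it stayed below under only 4 of the 11 alternatives that retain the H4K91R list. With tagged lists of equal length the share for initiation factors was 94.7% (74.0 to 99.9), above their like-fold share of 74.7%.

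Genes of the pathway that carries H3 and H4 were among those with H4WT-alone places. Of 21 genes for H3.3, histone chaperones and the Hira or DAXX complexes, 14 had an H4WT-alone place and 9 a shared one. Nap1l1, a chaperone of H2A and H2B, had fold 9.87, H3f3a, which encodes H3.3, 9.39, Daxx, which deposits H3.3 with Atrx, 8.85, and Hat1, which acetylates new H4, 8.34. Hira, Atrx, Asf1a, Nasp and Chaf1a also had H4WT-alone places and no shared ones. Rbbp4, Ubn2 and Asf1b had shared places only. Of the 27 gene-start places 63.0% were H4WT alone (42.4 to 80.6), against a like-fold share of 52.3%. This order turned with tagged lists of equal length, at 63.6% H4WT alone and a like-fold share of 70.4%. Replication-dependent histone genes were nearly bare, with an H4WT-alone place at 5 of 52 genes and a shared one at none, which for an exact interval allows up to 6.85%. H4c4, a gene for H4 itself, had the highest fold of the 5, 6.0003. Genes of the same histone type are close copies of one another, and whether reads were divided between them was not tested.

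Germline genes showed the opposite arrangement. None of 18 had an H4WT-alone place, which allows up to 18.5%, and 17 had a shared one. All 16 of their gene-start places were shared, where the like-fold share of H4WT-alone places was 42.5%. Mael had fold 11.4, Ddx4, an RNA helicase of germ cells, 10.9 and Dazl, a germ-cell RNA-binding protein, 10.6 at places that also held an H4K91R peak. Mael, Dazl and Tdrkh also held an H4K91Q peak. With tagged lists of equal length 2 of 12 places at germline genes were H4WT alone, against a like-fold share of 73.8%. Imprinted genes, expressed from the allele of 1 parent, had H4WT-alone places at 6 of 18 and shared ones at 16, and 24.1% of places were H4WT alone (10.3 to 43.5) against a like-fold share of 48.3%. Their strongest H4WT-alone places were at Magel2 (fold 7.41) and Igf2 (7.09), both of which also had a shared place, whereas shared places reached fold 19.7 at Grb10 and 18.7 at Nnat. With 50% overlap the imprinted share was 60.6% (42.1 to 77.1), an interval that included the like-fold share of 70.5%. The germline share was then 26.3% (9.15 to 51.2), an interval wholly below the like-fold share of 69.4%.

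Regulators of development also had more shared than H4WT-alone places. H4WT-alone places lay at 25% of forkhead, 35% of neural progenitor, 45.5% of Hox and 38.1% of Wnt and Frizzled genes, against 34% of all genes. Shared places lay at 82.1%, 90%, 77.3% and 90.5% of these lists in that order, against 32.6% of all genes. Forkhead transcription factors had H4WT-alone places at 7 of 28 genes and shared ones at 23, and 20.5% of their 39 places were H4WT alone (9.30 to 36.5), against a like-fold share of 49.6%. With 50% overlap the forkhead share was 65.2% (49.8 to 78.6), an interval that included the like-fold share of 72.1%. Foxj3, with fold 11.4, and Foxr1, with 6.09, had H4WT-alone places only. Neural progenitor genes had 7 of 20 with H4WT-alone places and 18 with shared ones, with 34.4% of places H4WT alone (18.6 to 53.2) and a like-fold share of 53.5%. Dll1, a Notch ligand, had the strongest H4WT-alone place of that list, at fold 7.29. Hox genes had 10 of 22 with H4WT-alone places and 17 with shared ones, with Hoxc4 (fold 9.06) and Hoxa7 (8.96) highest, and 30.3% of places H4WT alone (15.6 to 48.7) against a like-fold share of 46.9%. Wnt ligands and Frizzled receptors had 8 of 21 with H4WT-alone places and 19 with shared ones, led by Wnt9a (fold 10.3) and Wnt11 (9.03). With tagged lists of equal length the Wnt and Frizzled list turned to 77.8% H4WT alone, above its like-fold share of 71.3%.

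Sox factors had H4WT-alone places at 6 of 13 genes and shared ones at 11, and Pax factors H4WT-alone places at 5 of 7 and shared ones at 5. The H4WT-alone gene shares were 46.2% for Sox and 71.4% for Pax factors, beside 34% of all genes. The shared gene shares were 84.6% for Sox and 71.4% for Pax factors, beside 32.6% of all genes. Of the Sox places 40% were H4WT alone (19.1 to 63.9), against a like-fold share of 49.0%. Of the Pax places 46.2% were (19.2 to 74.9), against 59.6%. Sox4 (fold 8.18) and Pax5 (6.80) had H4WT-alone places only, while Pax2 (8.80) had both kinds. Mesoderm and endoderm genes had 7 of 19 with H4WT-alone places and 13 with shared ones, with Cxcr4, a chemokine receptor, at fold 6.16. Pluripotency genes had their strongest H4WT-alone places at Trim28, a corepressor (fold 10.8), Esrrb, a nuclear receptor of the naive state (7.62), Sox2 (7.23) and Lin28a (7.19), and Sox2 and Lin28a had a shared place as well. Neuronal genes had 7 of 20 with H4WT-alone places and 10 with shared ones, led by Eno2 (fold 7.62) and Syn1 (7.60), and potassium channels 31 of 68 with H4WT-alone places and 33 with shared ones, led by Kcnk4 (fold 12.2). Fibroblast genes were led by Col1a2, with fold 7.38.

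Other gene families differed among themselves. Zfp zinc finger genes had H4WT-alone places at 111 of 331 genes and shared ones at 79, with Zfp507 (fold 11.2) and Zfp281 (11.1) highest and 61.2% of places H4WT alone (54.3 to 67.9) against a like-fold share of 57.4%. With tagged lists of equal length the Zfp share was 69.7%, below its like-fold share of 72.2%. Keratins had 17 of 35 with H4WT-alone places and 8 with shared ones, among them Krt24 (fold 8.93) and Krt8 (7.22), and 72.0% of places H4WT alone (50.6 to 87.9) against a like-fold share of 56.7%, but 66.7% against 72.3% with tagged lists of equal length. Olfactory and vomeronasal receptor genes had almost none of either kind, with 7 of 1265 with H4WT-alone places and 9 with shared ones. Clustered protocadherins lie on chromosome 18 and had no starts here.

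**Figure D3:**
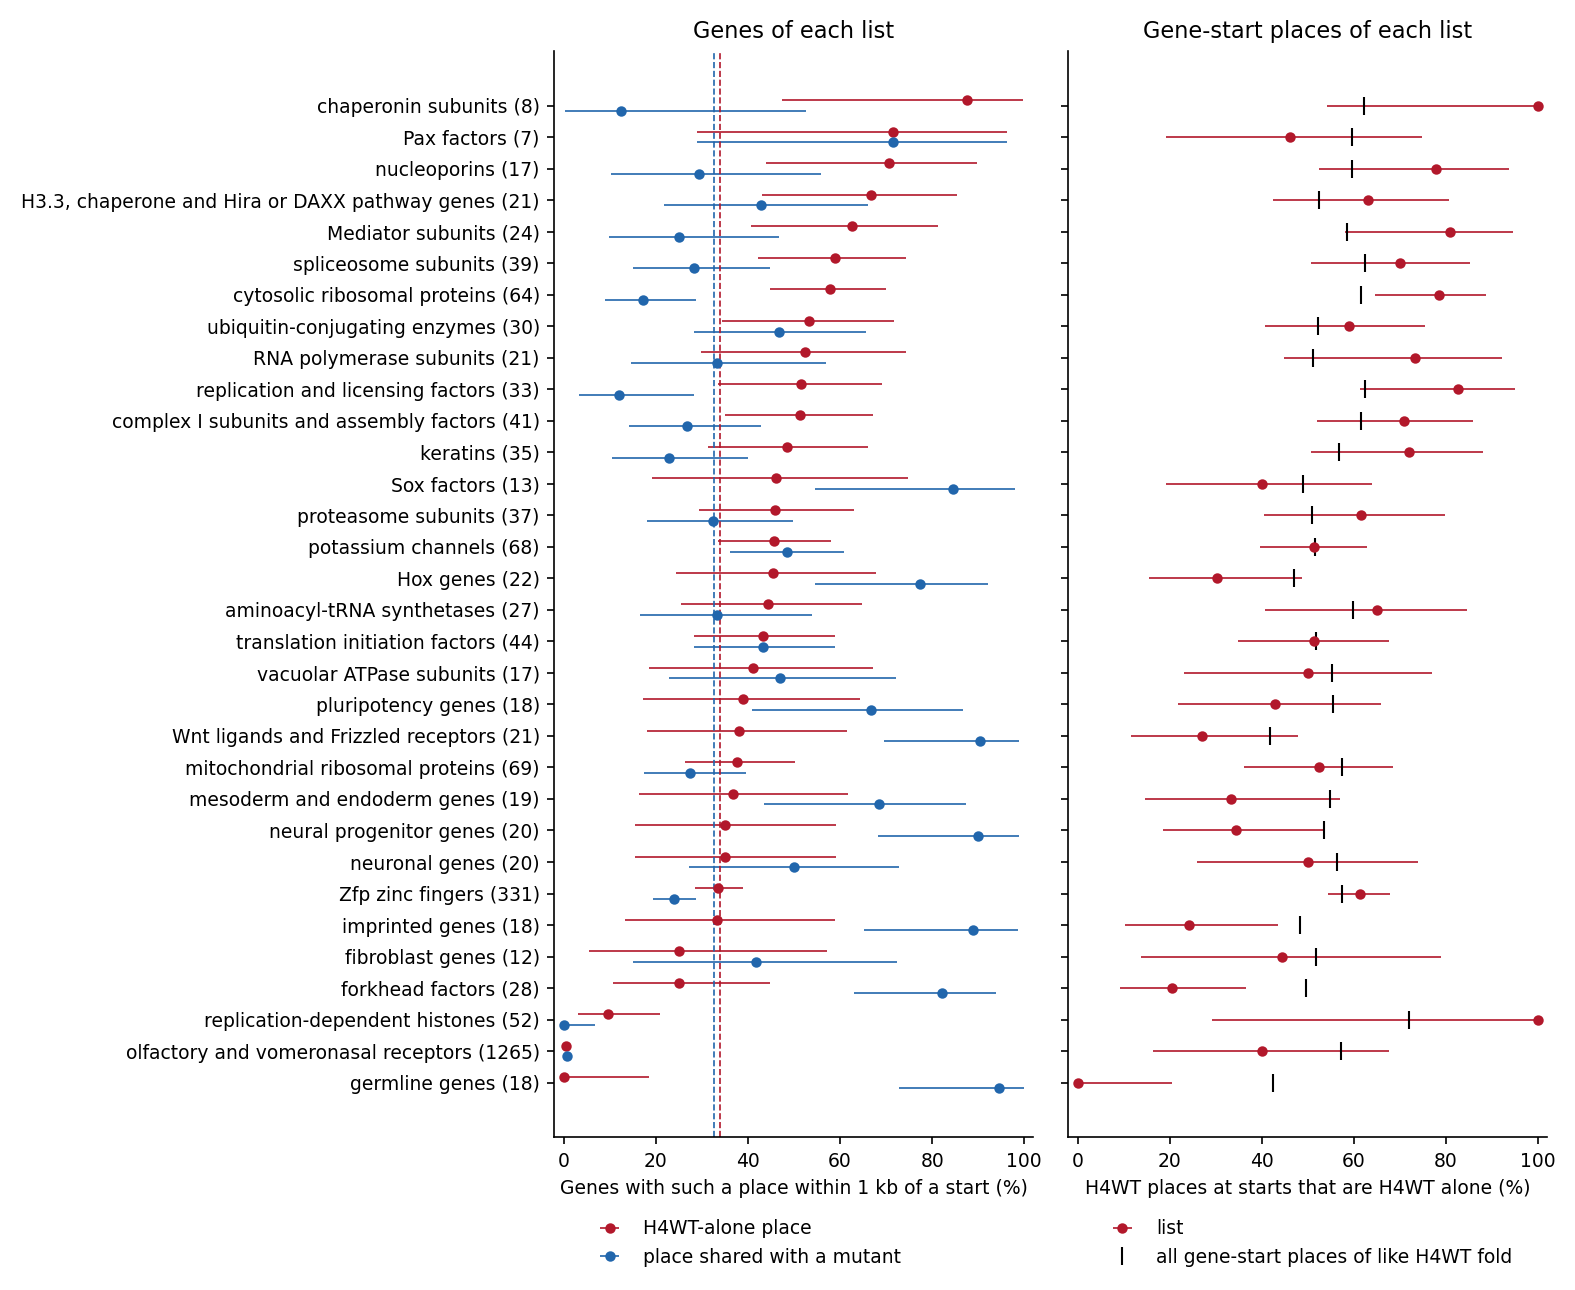
Left, percent of the genes of each list (number with a start in brackets) with an H4WT-alone place or a shared place within 1 kb of a start, with dashed lines at 34% and 32.6% for all genes; right, percent of each list's gene-start H4WT places that were H4WT alone, with a tick at the share of all gene-start places of like fold. Points are shares and bars exact 95% intervals, and cytosolic ribosomal proteins stand right of their tick (78.4% against 61.5%) and germline genes left of theirs (0% against 42.5%).

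The promoter windows were compared by the places within 1 kb of their start. There were 5310 promoters with H4WT-alone places only, 4934 with shared places only, 1730 with both and 9289 with no H4WT place. CpG content was alike in the occupied ones: the median observed over expected CpG was 0.750 with H4WT-alone places, 0.761 with shared ones and 0.227 with no H4WT place. The median GC content was 60.7% with H4WT-alone places, 63.7% with shared ones and 48% with no H4WT place. Where observed over expected CpG was under 0.4, 62.3% of gene-start places were H4WT alone (59.9 to 64.7), with a like-fold share of 59.9%. Where it was from 0.6 to 0.8, 50.7% were (49.0 to 52.4), with a like-fold share of 52.5%. The share did not fall steadily with CpG. It was 52.2% (50.6 to 53.8) from 0.8 to 1 and 54.5% (52.1 to 56.9) from 1 upward, each with a like-fold share of 52.1%.

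The ETS motif, bound by a large family of activators at constitutive promoters, was found in 18.3% of promoters with H4WT-alone places (17.3 to 19.4), 13.3% of those with shared places (12.4 to 14.3), 6.62% of those with no H4WT place and 11.6% of all. The YY1 core was found in 8.70% (7.96 to 9.49) with H4WT-alone places, 6.49% (5.81 to 7.21) with shared ones, 2.35% with none and 5.25% of all. The CCAAT box was in 37.9% with H4WT-alone places (36.6 to 39.2), 33.6% with shared ones (32.3 to 34.9), 41.7% with none and 38.2% of all. The GC box went the other way, with 47.7% (46.4 to 49.1) for H4WT-alone, 52.0% (50.6 to 53.4) for shared, 11.9% for none and 33.9% of all. The other 5 motifs differed by less, and their intervals for H4WT-alone and shared promoters overlapped. In the highest fold class, 35.8% of places at promoters with an ETS motif were H4WT alone (30.6 to 41.3) and 25.5% of those without (23.6 to 27.4). For the YY1 core these shares were 36.6% with (29.8 to 43.9) and 26.0% without (24.2 to 27.8). For the CCAAT box the intervals overlapped, at 28.2% with (25.2 to 31.4) and 26.1% without (24.0 to 28.3). For each of these 3 motifs the share was higher with the motif in 9 of 10 fold classes. ETS motifs were in 34.2% of the 76 promoters of cytosolic ribosomal protein genes, 41.03% of 39 of replication factors and none of 24 of Hox genes. They were also in 34.7% of 75 of mitochondrial ribosomal protein genes, whose places were not more often H4WT alone. Keratins had ETS motifs in none of 36 promoters, though 72.0% of their places were H4WT alone against a like-fold share of 56.7%. Complex I genes had them in 14.0% of 43, with 71.0% of places H4WT alone against 61.6%. These lists are examples, and ETS was not compared with the H4WT-alone share over all lists. A match is a stretch of letters, not a binding site.

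**Figure D4:**
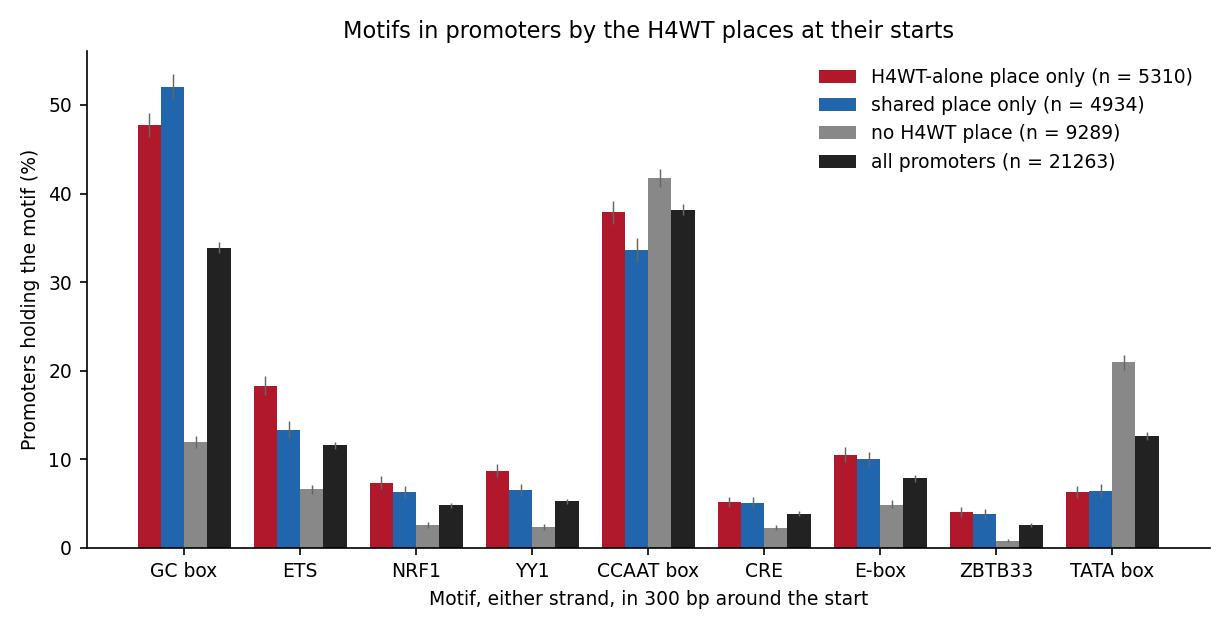
Percent of promoter windows of 300 bp (vertical axis) that hold each of 9 motifs on either strand (horizontal axis), for promoters with H4WT-alone places only, shared places only, no H4WT place, and all promoters; bars are shares and whiskers exact 95% intervals. ETS stands at 18.3% with H4WT-alone places and 13.3% with shared ones, and the GC box at 47.7% with H4WT-alone places and 52.0% with shared ones.

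Inside genes, members lay toward the far end, as did places shared with H4K91R. Summits within 1 kb of any annotated start were counted at gene starts, which takes places away near the start of the gene. Of 17121 members inside a gene with a known strand, 36.7% (35.9 to 37.4) lay in the last of 4 equal stretches of the gene and 16.2% (15.7 to 16.8) in the first. Places of H4WT and H4K91R had 40.8% (39.7 to 42.0) in the last stretch and 16.2% (15.4 to 17.1) in the first. The genes around members had a median length of 46.1 kb, and those around places shared with H4K91R 35.7 kb. Members lay inside 5460 named genes, 2381 of which held 1 and 263 at least 10. Gse1 held most, 103, beside 104 places shared with H4K91R. Casz1 held 48, Macrod1 47, Rbfox3 46, and Camta1 and Dnah17 43 each. Per 100 kb these came to 29.2 in Gse1, 31.9 in Casz1, 33.3 in Macrod1, 10.9 in Rbfox3, 5.36 in Camta1 and 39.5 in Dnah17. The choice of these 6 genes was made with their values known.

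The 5 highest members inside genes had folds from 13.8 to 14.7. They lay in Sh3glb2, an endophilin family gene (chr2:30345619-30345950, fold 14.7), in Crocc, which encodes the ciliary rootlet protein (chr4:141021558-141022392, 14.2), in Atp11a, a phospholipid flippase (chr8:12863548-12863915, 13.9), in Celf5, an RNA-binding regulator of splicing (chr10:81464062-81465051, 13.9), and in Gmppa, of GDP-mannose synthesis (chr1:75438759-75439082, 13.8). The places in Crocc and Atp11a lay 194 and 208 bp from an H4K91R peak. Both, and the wide place in Cdh4 named next, which lay 406 bp from one, were no longer alone once mutant peaks were widened by 500 bp. The widest members were in Atxn2 (1692 bp, fold 10.9), Dlgap3 (1628 bp, fold 11.2), at the start of Atoh8, a neural helix-loop-helix factor (1626 bp, fold 9.73), at the start of Ccdc6 (1472 bp, fold 6.60) and in Cdh4 (1467 bp, fold 9.87).

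Outside genes, members lay a median of 44.3 kb from the nearest protein-coding start, and places of H4WT and H4K91R 43.9 kb. Annotated lncRNA genes overlapped 17.9% of these members (17.2 to 18.6) and 18.8% of places shared with H4K91R (17.6 to 20.01). Annotated pseudogenes overlapped 3.49% (3.16 to 3.84) of members and 4.78% (4.15 to 5.47) of places shared with H4K91R. The 5 highest members outside genes had folds from 12.1 to 12.6. Counted along the gene with upstream negative, the summit of the first lay at -5145 bp from the start of Sox1, a neural transcription factor (chr8:12390228-12390827). The next lay at -7409 bp from that of Fzd9, a Wnt receptor (chr5:135258329-135258650). The other three had as nearest starts those of Aar2, at 33928 bp, Fgfbp3, at 15168 bp, and Cpn2, at 79373 bp.

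Distances from members to mutant peaks are a description, as the rule keeps such peaks from overlapping members and no other positions were measured. The nearest H4K91R peak was a median of 5.43 kb away, within 500 bp for 12.9% of members (12.6 to 13.3), within 1 kb for 20.8% (20.4 to 21.2) and within 5 kb for 48.3% (47.9 to 48.8). The nearest H4K91Q peak was a median of 143 kb away and within 1 kb for 0.435% (0.374 to 0.503). The H4K91Q list is the shorter one, with 14206 peaks kept against 47898 for H4K91R, so distances to the 2 lists are not compared further. The nearest empty-vector peak was a median of 105 kb away for members and for places shared with H4K91R alike. At gene starts 25.5% of members had an H4K91R peak within 1 kb (24.4 to 26.6), inside genes 23.7% (23.1 to 24.3) and outside 12.6% (12.02 to 13.25).

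**Figure D5:**
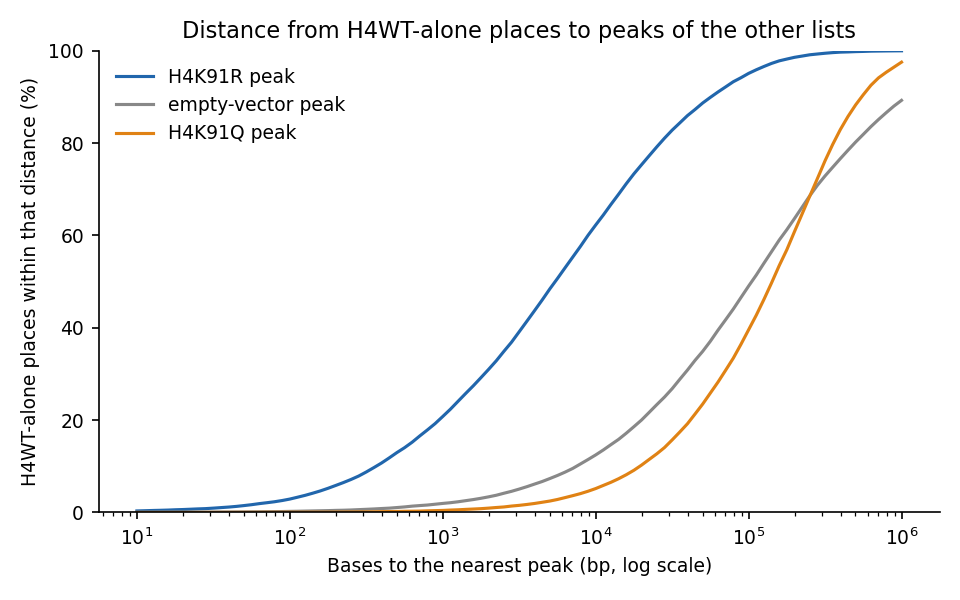
Percent of H4WT-alone places (vertical axis) with a peak of the H4K91R, empty-vector or H4K91Q list within the distance on the horizontal axis (bp, log scale). The H4K91R curve passes 48.3% at 5 kb, where the H4K91Q curve stands at 2.46% and the empty-vector curve at 7.33%.

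The rule turned on 1 bp of overlap, and a small part of the members lay at that edge. A mutant peak adjoined 21 members without sharing a base, and 614 members (1.48%) had one less than 50 bp away. Among shared places 379 (1.62%) had less than 50 bp of overlap. The median fold was alike on both sides, 5.36 for members under 50 bp from a mutant peak and 5.24 for shared places under 50 bp of overlap. Just inside, the adjoining members of highest fold were at the starts of Pde11a, a phosphodiesterase (fold 9.24), and B4gat1 (8.38), inside genes near Ccdc92 (7.05) and Mrpl23 (5.81), and at the start of Ldoc1 (6.08). Just outside, places with 1 bp of overlap were at the start of Pfkp, a phosphofructokinase (H4WT fold 7.39), near Prr12 and P2rx6 (5.68 each), and at the starts of Bricd5 (5.14) and Igfbp5 (4.70).

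Along the genome, members followed gene density as the shared places did. Windows of 1 Mb with no protein-coding gene held 1.74 members and 1.18 shared places per Mb, and those with 20 or more genes held 56.5 members and 30.7 shared places. The H4WT-alone share changed little, at 59.5% (56.3 to 62.6) in windows without genes and 64.8% (64.2 to 65.4) in those with 20 or more. The 3 windows with most members were 80 to 81 Mb of chromosome 10 with 297, its neighbour from 81 to 82 Mb with 220, and 120 to 121 Mb of chromosome 8 with 209, which holds 11 protein-coding genes where the first has 54. The H4WT-alone share in them was 64.1% (59.6 to 68.5), 63.2% (57.9 to 68.3) and 56.0% (50.8 to 61.1), against 64% genome-wide. Among autosomes it ran between 58.6% on chromosome 8 (57.3 to 60.02) and 67.7% on chromosome 19 (65.7 to 69.7). Chromosome X had 70.3% (66.8 to 73.7) with a median H4WT fold of 5.06, the lowest of all chromosomes. Chromosome Y had 7 members among 69 H4WT places, or 10.1% (4.18 to 19.8).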

How the data were processed

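The peak lists of 4 anti-HA ChIP-seq libraries of mouse embryonic stem cells were used (empty vector, H4WT, H4K91R, H4K91Q), 1 library per group, grouped by sample title. The other 32 samples were not analysed here. Peaks were called with MACS2 on mm10, per the submitters' processing notes, and by the peak names in the deposited lists every pulldown was called singly, with the input of its own line as control. The aligner, tool versions and q threshold, and how duplicates were treated, were not given in the sources used here.

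The deposited score equals 10 times the −log10 q rounded down in 100% of peaks and was not used further. The fold that the authors deposited, a ratio to background at each summit, served only to describe, rank and class H4WT peaks. The −log10 q given by the authors served to filter or shorten lists, and their −log10 p was not used. A deeper library lets weaker places pass, so list length and membership can move with depth.

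Peaks overlapping an empty-vector peak by at least 1 bp were left out (2080 of 69158 H4WT, 1257 of 49155 H4K91R, 108 of 14314 H4K91Q), and the rest joined where they shared at least 1 bp. Starts, 21263 in all, came from RefSeq GRCm38.p6. Joining, location and gene marking were tested on simulated peaks. Shares have exact (Clopper-Pearson) 95% intervals from scipy 1.17.1, run with pandas 2.3.3. No test was made.

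Named genes follow a rule: the 10 highest-fold members at gene starts, 5 inside and 5 outside genes, the 5 widest, 5 at each side of the overlap edge, 3 windows of 1 Mb and up to 4 genes per list, passing over predicted genes and chromosome 18. The members, lists, motifs and this rule were chosen with earlier results of these data known. Alternatives were a −log10 q of 5, other overlaps, list lengths and gene-start windows, keeping empty-vector regions, and leaving out a mutant list; joining adjoining peaks, and each list's share under all of these, were added after seeing the data.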

Additional observations from a re-analysis of the deposited data

How the results depend on the processing

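The number of H4WT-alone places, 41624, was 26343 with H4WT peaks of −log10 q 5 or more, 26086 with the H4WT list cut to the length of H4K91R, 9074 with tagged lists of equal length and 64333 without the H4K91R list, and within 1.5 times of it under the other 6 settings. Adjoining peaks joined gave 41603. The share of H4WT places that were H4WT alone, 64%, ran at 56.8% and 56.6% under those first 2 settings, 67.9% at equal length and 96.2% without H4K91R. It was 71.7% with −log10 q of 5 or more in every tagged list, 76.1% with an overlap of 50% of each peak, 54.0% with mutant peaks widened by 500 bp and 63.3% with empty-vector regions kept.

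The share of members at gene starts, 16.4%, was in the same order 20.2%, 20.3%, 39.5%, 20.5%, 22.1%, 18.97% and 15.2%, and 13.3% and 19.6% with windows of 500 bp and 2 kb. Among shared places it was higher than among members in all of these but 2: equal length (39.5% of members, 32.4% of shared places) and without H4K91R (20.5% of members, 3.32% of shared places). The share of members outside genes, 28.0%, was 23.9%, 23.9%, 11.5%, 25.2%, 22.5%, 26.4% and 29.7% in that order. It lay above the shared places (25.4%) as reported, and below them at equal length (11.5% of members, 22.1% of shared places), without H4K91R (25.2% of members, 67.4% of shared places), at −log10 q 5 in every list (22.5% of members, 25.5% of shared places) and at 50% overlap (26.4% of members, 28.1% of shared places). Genes with an H4WT-alone place at the start numbered 5955, with 3621 at equal length and 9994 without H4K91R. The cause of these moves was not tested.

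Without H4K91R at least 83.3% of the gene-start places of every list were H4WT alone, so that setting says little about lists. Under the 11 others, cytosolic ribosomal proteins, complex I, Mediator, nucleoporins, RNA polymerase, ubiquitin-conjugating enzymes and chaperonin subunits (1 place at equal length) kept a share above the like-fold share. Germline, imprinted, Hox, forkhead, neural progenitor, pluripotency, and mesoderm and endoderm genes kept one below. Replication factors, proteasome subunits and keratins turned below at equal length. Spliceosome subunits, Zfp genes and the H3.3 and chaperone genes did so there and with −log10 q 5 in every list (64% against 68.3% for the H3.3 genes), and aminoacyl-tRNA synthetases with that setting and 50% overlap. Translation initiation factors, below as reported, stayed below under only 4 of the 11, potassium channels under 6 and vacuolar ATPase subunits under 9. The ETS share of promoters was higher with H4WT-alone than with shared places under every alternative, narrowest at 50% overlap (16.2% with H4WT-alone, 15.4% with shared places) and without H4K91R (15.4% with H4WT-alone places, 14.9% of 87 promoters with shared ones). Of 25 named places 22 stayed alone with widened mutant peaks and 24 at equal length, and of 121 genes named in lists 94 and 66. No paired analysis was possible because each group has 1 library. Depth is unknown, so a missing mutant peak cannot be told apart from one too weak to be called.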
